A study of Mus musculus with 6 samples.

Results

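Small leucine-rich proteoglycans (SLRPs) were followed through 7 of their mouse genes, Dcn, Bgn, Lum, Fmod, Ogn, Aspn and Prelp, each taken by its symbol in the gene tables of every library. These are 7 of 18182 genes in the data. The RNA came from Lewis lung carcinoma (LLC) cells, a line derived from a lung tumour of a C57BL/6 mouse, that carried red fluorescent protein (LLC-RFP). Wild-type C57BL/6 mice were given these cells under the skin, either LLC-RFP alone or LLC-RFP mixed with bone marrow-derived mesenchymal stem cells (BMSCs), and red-fluorescent cells were then sorted from the primary tumours. Each of these groups, LLC alone and LLC with BMSCs, was represented by 3 libraries, and both carried the same fluorescent line and came from the same host strain. The labels do not say whether each library came from 1 mouse or from several, so the spread between libraries may in part be technical. The question put by the design was how the transcriptome of the cancer cells differed when BMSCs had been injected with them.

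SLRPs are secreted proteins of the extracellular matrix, built of leucine-rich repeats, and most carry chains of chondroitin, dermatan or keratan sulphate. They bind collagen fibrils and set their spacing and width, and they also bind growth factors and cell surface receptors. In tumours they are known mainly as products of fibroblasts and other stromal cells.

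The estimated counts on genes added up to between 33476347 and 46189113 per library, and the shallowest library was LLC alone replicate 2. Levels are given in FPKM (fragments scaled to transcript length and library total), which can be compared between genes, and differences were tested on counts with the quasi-likelihood test of edgeR (Benjamini-Hochberg adjusted p, threshold 0.05). Of 13353 genes that passed the filter on low counts, 31.5% were called higher and 31.3% lower in LLC with BMSCs, 62.9% together, and the groups did not overlap for 71.3%. A call or a gap between the groups was therefore the usual outcome for a tested gene. In the sort gate, the epithelial markers Epcam and Cdh1 were at no more than 5 counts in any library, while the keratin Krt8 was at 95.3 ± 5.98 FPKM in LLC alone and 110.0 ± 2.85 in LLC with BMSCs (SD, n = 3 each). The other listed keratins were low. Krt18 had 2, 4 and 8 counts in LLC alone and 41, 37 and 37 in LLC with BMSCs, and Krt7 and Krt19 had at most 3 in any library.

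The 7 genes did not move as one. Dcn, Bgn and Lum were higher in LLC with BMSCs, Ogn was lower, Aspn did not pass the test, and Fmod and Prelp had too few counts to enter it. The largest change was in Dcn, from near absence to the most abundant of the 7. In LLC alone the most abundant had been Ogn.

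Stretches of reference sequence are given here because Bgn and Ogn were the only 2 of the 7 above 1 FPKM in every library, and they changed in opposite directions. Each holds the 250 bases before the RefSeq start of the gene, on the strand of the gene, on build GRCm38.p6. Distances of matches are counted from that start. The gene positions given further below are from GENCODE, which places the start at 73483602 for Bgn and 49608046 for Ogn. The window of Bgn is chrX:73483351-73483600 and that of Ogn is chr13:49607765-49608014, both on the plus strand. In the window of Bgn, capitals mark matches on either strand to the GC box letters GGGCGG. In that of Ogn they mark, likewise, the letters of the TATA box, TATAAA. Matches that overlap are marked as 1 run.
Bgn: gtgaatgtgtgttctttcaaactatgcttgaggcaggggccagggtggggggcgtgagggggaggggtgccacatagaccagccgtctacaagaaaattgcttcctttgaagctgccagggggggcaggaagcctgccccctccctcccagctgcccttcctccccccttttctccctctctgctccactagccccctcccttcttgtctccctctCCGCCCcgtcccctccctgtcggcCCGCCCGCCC
Ogn: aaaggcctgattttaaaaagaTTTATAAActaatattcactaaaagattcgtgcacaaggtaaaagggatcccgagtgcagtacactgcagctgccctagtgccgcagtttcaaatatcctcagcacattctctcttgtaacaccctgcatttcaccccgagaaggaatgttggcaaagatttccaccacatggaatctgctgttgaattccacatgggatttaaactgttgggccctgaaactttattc
The window of Bgn was 64.4% G and C with 7 CpG pairs, and its GGGCGG matches lay 34 to 29, 10 to 5 and 6 to 1 bases before the start. The window of Ogn was 42.0% G and C with 4 CpG pairs, and its TATAAA matches, which overlap each other, lay 229 to 224 and 227 to 222 bases before the start. The median of 32851 mouse promoter windows of that length was 52.4% G and C. GGGCGG was found in 32.74% of these windows and TATAAA in 12.37%.

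Of the 7 genes, 5 had a window in the RefSeq table used, those of Bgn, Ogn, Aspn, Fmod and Prelp. The G and C content was 30.0% for Aspn, 51.2% for Fmod and 55.6% for Prelp. Aspn held TATAAA 207 to 202 and 178 to 173 bases before its start, and neither Fmod nor Prelp held TATAAA or GGGCGG. The STAT letters TTCNNNGAA, present in 7.02% of all windows, were in 0 of the 5. A match is a run of letters and not evidence of binding, and a missing match concerns these windows only.

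Dcn encodes decorin, which binds collagen and transforming growth factor beta and is known to restrain several receptor tyrosine kinases. The gene (NCBI 13179) lies at chr10:97479609-97518143 on the plus strand of GRCm38, next to Lum. Its level was 0.10, 0.13 and 0.10 FPKM in LLC alone replicates 1 to 3 and 6.22, 6.56 and 6.14 FPKM in LLC with BMSCs replicates 1 to 3. All libraries of the second group lay far above all of the first. Behind the low values stood 8 estimated counts in each LLC alone library, against 506, 526 and 492 in LLC with BMSCs. The mean rose from 0.11 ± 0.0173 to 6.31 ± 0.223 FPKM (SD, n = 3 each). edgeR gave a log2 fold change of 5.87 with a standard error of 0.14 (adjusted p = 1.02e-07), and 1.09% of tested genes had a larger one. From the summed counts alone, 24 against 1524, the ratio was 59.4 with a 95% exact interval of 39.8 to 93.1, which covers counting error only. Dcn entered the test only through LLC with BMSCs, since its LLC alone values lay near or under the filter at 0.226 CPM, the counts scaled to library total only.

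Bgn encodes biglycan, the closest relative of decorin, which is also known as a ligand of Toll-like receptors 2 and 4 when it is released from matrix. The gene (NCBI 12111) lies at chrX:73483602-73495933 on the plus strand of GRCm38. Its level was 1.55, 1.49 and 1.54 FPKM in LLC alone and 4.68, 4.46 and 4.17 FPKM in LLC with BMSCs. The groups were well apart, and the spread within each was small beside the gap. The mean rose from 1.53 ± 0.0321 to 4.44 ± 0.256 FPKM (SD, n = 3 each). edgeR gave a log2 fold change of 1.54 with a standard error of 0.085 (adjusted p = 5.17e-06), and 5.30% of tested genes had a larger one. The estimated counts were 161, 113 and 161 in LLC alone and 476, 451 and 423 in LLC with BMSCs.

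Lum encodes lumican, a keratan sulphate proteoglycan that regulates fibril width in cornea and skin. The gene (NCBI 17022) lies at chr10:97565128-97572703 on the plus strand of GRCm38. It was weakly expressed throughout, at 0.04, 0.03 and 0.03 FPKM in LLC alone and 0.23, 0.31 and 0.17 FPKM in LLC with BMSCs. The groups did not overlap, yet the values rest on 4, 2 and 3 estimated counts against 21, 27 and 15. The log2 fold change was 2.67 with a standard error of 0.38 (edgeR, adjusted p = 0.000549). The ratio from the summed counts, 9 against 63, was 6.55 with a 95% exact interval of 3.24 to 15.0. Like Dcn, Lum entered the test only through LLC with BMSCs. At its highest, Lum remained well below the lowest Dcn or Bgn value of the same group.

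Ogn encodes osteoglycin, also called mimecan, a member of the class found in bone, cornea and vessel walls. The gene (NCBI 18295) lies at chr13:49608046-49624501 on the plus strand of GRCm38, inside Cenpp, a gene of the opposite strand with which it shares 0 of its 2566 exon bases in the GENCODE annotation. Its level was 4.63, 4.61 and 4.94 FPKM in LLC alone and 3.49, 3.64 and 3.34 FPKM in LLC with BMSCs. Every library of LLC with BMSCs lay below every library of LLC alone. The mean was 4.73 ± 0.185 against 3.49 ± 0.15 FPKM (SD, n = 3 each). edgeR gave a log2 fold change of -0.46 with a standard error of 0.076 (adjusted p = 0.00124). The fall was modest among all tested genes, 20.9% of which had a smaller log2 fold change.

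Aspn encodes asporin, a relative of decorin with a run of aspartic acids in place of a sulphated chain. The gene (NCBI 66695) lies at chr13:49544443-49567565 on the plus strand of GRCm38, also inside Cenpp, and shares 7 of its 2354 exon bases with it. Its level was 0.15, 0.14 and 0.13 FPKM in LLC alone and 0.14, 0.11 and 0.09 FPKM in LLC with BMSCs, so that the groups overlapped. The log2 fold change was -0.36 with a standard error of 0.26 (edgeR, adjusted p = 0.331). With 41 counts against 34, the ratio was 0.776 with a 95% exact interval of 0.478 to 1.25, which leaves room for a fall larger than that of Ogn.

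Fmod encodes fibromodulin, a keratan sulphate proteoglycan of tendon and cartilage that binds collagen. The gene (NCBI 14264) lies at chr1:134037254-134048277 on the plus strand of GRCm38. It had 6, 2 and 7 estimated counts in LLC alone, or 0.05, 0.02 and 0.05 FPKM, and 0 counts in each library of LLC with BMSCs. Against a floor of 3 counts per library, Fmod was at least 1.70-fold lower in LLC with BMSCs. It did not pass the filter on low counts. In the fit without that filter, over 18158 genes, its adjusted p was 0.0090 (edgeR).

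Prelp encodes prolargin, a matrix anchor that binds collagen and heparan sulphate. The gene (NCBI 116847) lies at chr1:133910304-133921414 on the minus strand of GRCm38 and shares 350 of its 3615 exon bases with Gm15851 on the opposite strand. It had 1, 0 and 1 counts in LLC alone and the same 1, 0 and 1 in LLC with BMSCs. These are under the floor of 3 counts, which stood for about 0.03 FPKM, and no difference could be detected at this depth.

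With 3 libraries against 3, an exact two-sided permutation test cannot give a p below 0.1. It gave 0.1 for the FPKM of Dcn, Bgn, Lum, Fmod and Ogn and 0.3 for Aspn. In these sorted bulk samples, a change in the number of cells that express a gene and a change in RNA per cell cannot be told apart.

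**Figure D1:**
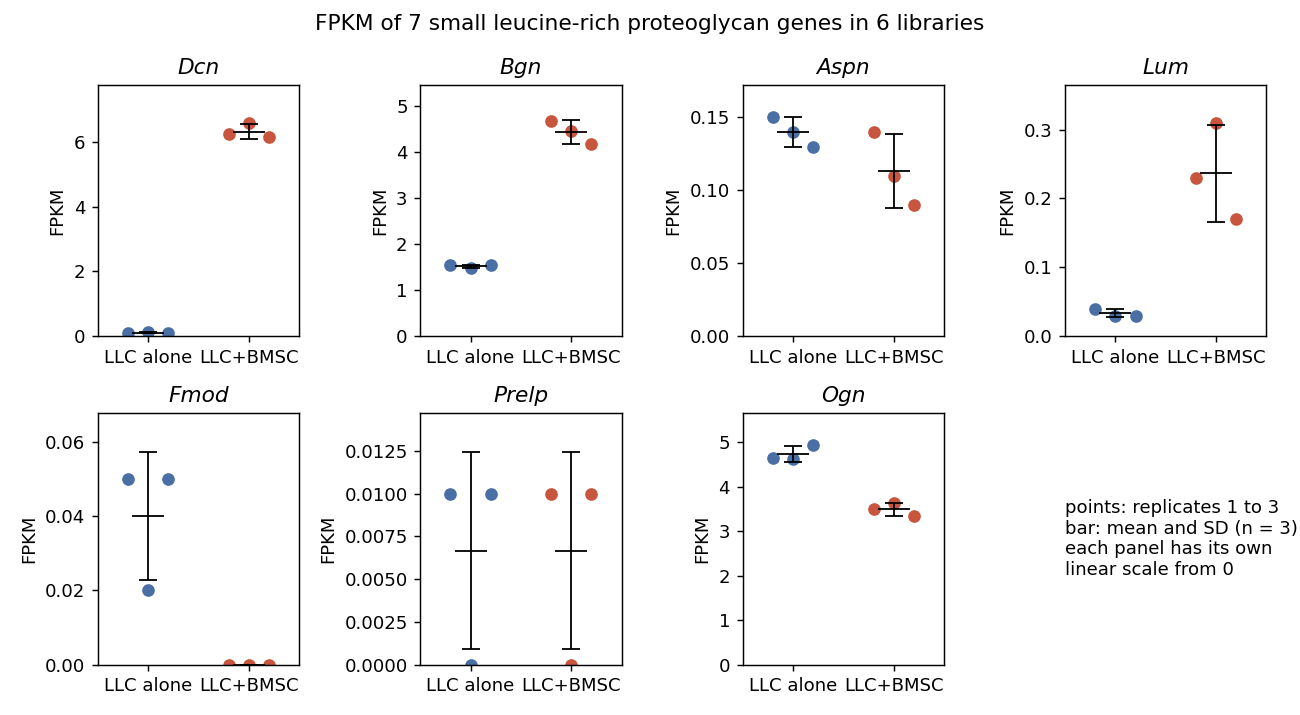
Level in FPKM (vertical axis, linear from 0, a separate scale for each gene) of the 7 SLRP genes in the 6 libraries, by group. Points are libraries and bars the mean and SD. Dcn, Bgn and Lum lie higher in LLC with BMSCs, Ogn and Fmod lie lower, and the groups overlap for Aspn and Prelp.

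The order of levels within a library changed with the group. In LLC alone Ogn led at 4.73 FPKM, followed by Bgn at 1.53, and both stood clear of each other and of the rest. Aspn (0.14 ± 0.010 FPKM) and Dcn (0.11 ± 0.0173) met at 0.13, and the ranges of Fmod (0.04 ± 0.0173) and Lum (0.033 ± 0.0058) overlapped. In LLC with BMSCs the order was Dcn, Bgn, Ogn, Lum and Aspn, at 6.31, 4.44, 3.49, 0.237 ± 0.0702 and 0.113 ± 0.0252 FPKM, with no overlap between neighbours. Prelp and Fmod came last, at or near 0.

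The summed level of the 7 genes was 6.53, 6.42 and 6.80 FPKM in LLC alone and 14.8, 15.1 and 13.9 FPKM in LLC with BMSCs. The mean rose from 6.58 ± 0.196 to 14.6 ± 0.601 (exact permutation test, two-sided, p = 0.1, n = 3 each). The gain of Dcn, 6.20 FPKM, made up most of the difference of 8.01 FPKM.

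The make-up of that sum turned over. Ogn supplied 70.9%, 71.8% and 72.6% of it in LLC alone and 23.6%, 24.1% and 24.0% in LLC with BMSCs. Dcn supplied 1.53%, 2.02% and 1.47% in LLC alone and 42.1%, 43.5% and 44.1% in LLC with BMSCs. Bgn moved least of the leading genes, from 23.2% ± 0.545 to 30.4% ± 1.12 (SD, n = 3 each). Shares are bound to sum to 100%, so the smaller share of Ogn follows in part from the rise of Dcn. Lum rose from 0.507% to 1.61% of the sum and Aspn went from 2.13% to 0.775%, and neither exceeded 2.30% in any library. The exact permutation test gave p = 0.1, the smallest it can give, for all shares other than that of Prelp, for which it gave 0.4.

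**Figure D2:**
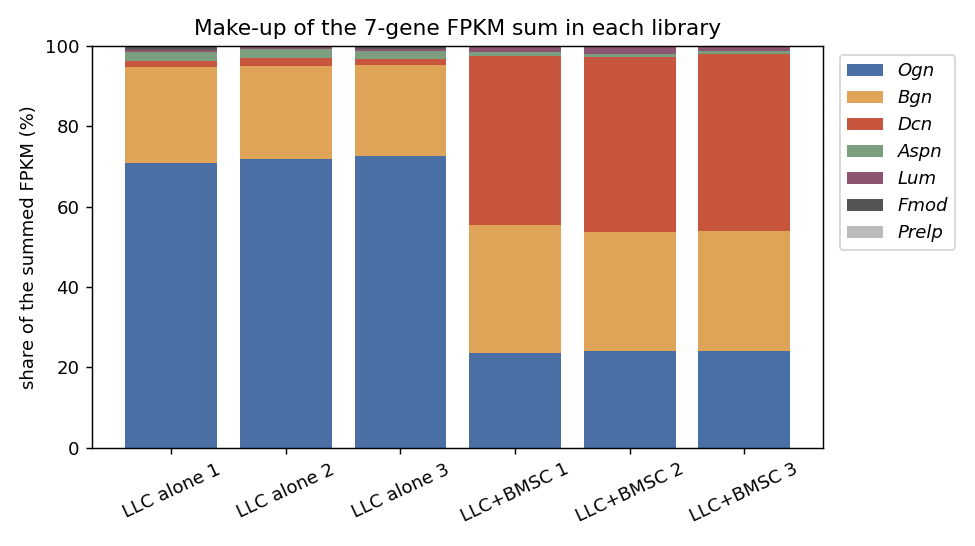
Share of each gene in the summed FPKM of the 7 SLRP genes (vertical axis, percent) in each of the 6 libraries, as stacked bars. Ogn fills about 72% of the bar in LLC alone, and Dcn with Bgn fills most of it in LLC with BMSCs.

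Ratios within a library do not depend on how libraries are scaled to each other. The Bgn to Dcn ratio of FPKM was 15.5, 11.5 and 15.4 in LLC alone and 0.752, 0.680 and 0.679 in LLC with BMSCs. On the log2 scale its mean went from 3.81 ± 0.25 to -0.51 ± 0.085 (exact permutation test, two-sided, p = 0.1, n = 3 each). The order of the pair was thus reversed in each library. The Ogn to Bgn ratio fell from 2.99, 3.09 and 3.21 to 0.746, 0.816 and 0.801. The Ogn to Dcn ratio fell from 46.3, 35.5 and 49.4 to 0.561, 0.555 and 0.544.

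Several SLRP genes are neighbours on the genome. On chromosome 10 the run Dcn, Lum, Kera and Epyc held both Dcn and Lum, which were higher, and Epyc, which was at or under 3 counts in every library. On chromosome 13 the run Ecm2, Aspn, Omd and Ogn held 1 called gene, Ogn, which was lower. On chromosome 1 Prelp and Fmod are adjacent, after Optc, and all of them were at or near the floor. Kera had no entry under its symbol in the data.

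Transcript values were deposited for each gene and are given as a description with no test. Bgn was divided between the RefSeq transcript NM_007542 of 2423 bases and a transcript assembled by the authors' pipeline, BGI_novel_T009066, of 2316 bases. The assembled transcript took 92.0%, 86.4% and 88.1% of the estimated counts of Bgn in LLC alone and 65.5%, 55.3% and 35.3% in LLC with BMSCs. In FPKM, the RefSeq transcript went from 0.12, 0.19 and 0.18 to 1.57, 1.95 and 2.65, while the assembled one went from 1.43, 1.30 and 1.37 to 3.11, 2.52 and 1.52. Both were higher in each library of LLC with BMSCs than in any of LLC alone, and the division between them varied widely within LLC with BMSCs (52.0% ± 15.3 assembled, against 88.9% ± 2.88).

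Dcn was divided between NM_001190451 (1902 bases) and NM_007833 (1829 bases). In LLC with BMSCs the first took 91.1%, 85.2% and 95.2% of the counts. In LLC alone all 8 counts of a library went to a single transcript, NM_007833 in replicates 1 and 3 and NM_001190451 in replicate 2, so that the counts there are too few to describe a division. Aspn showed the same all-or-none assignment between NM_025711 and NM_001172481 in all 6 libraries. Lum, Fmod, Ogn and Prelp had 1 transcript each. Reads common to transcripts are apportioned by estimation, and the depth of reads that tell them apart was not given.

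**Figure D3:**
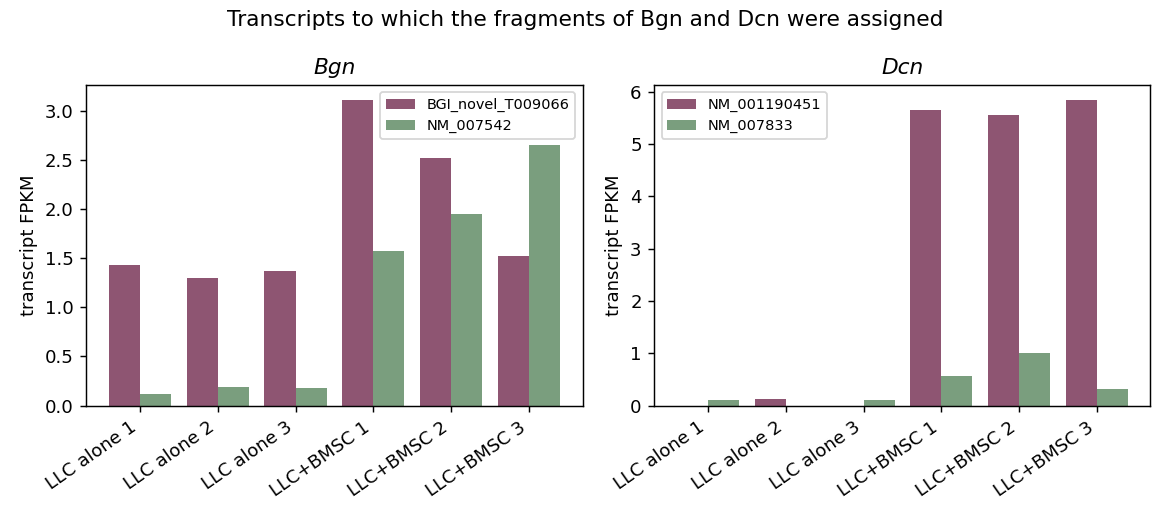
FPKM of the 2 listed transcripts of Bgn and of Dcn (vertical axes, linear from 0) in each of the 6 libraries, without error bars since each bar is 1 library. For Bgn the assembled transcript leads in all of LLC alone and in LLC with BMSCs replicates 1 and 2, and the RefSeq transcript leads in replicate 3.

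The other members of the family were listed as a group of 11 genes, of which 9 were in the data and 4 passed the filter. Podnl1 and Tsku rose, 0 fell, and Omd and Ecm2 did not pass the test. Tsku encodes tsukushi, an inhibitor of several growth factor pathways, and was the most abundant family gene in both groups. It rose from 9.83 ± 0.272 to 14.4 ± 1.33 FPKM, a log2 fold change of 0.54 with a standard error of 0.077 (edgeR, adjusted p = 0.00055). Podnl1, a podocan-like member, rose from 0.83 ± 0.0866 to 1.82 ± 0.13 FPKM, a log2 fold change of 1.08 with a standard error of 0.11 (edgeR, adjusted p = 0.0001).

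Omd, which encodes the bone proteoglycan osteomodulin, was at 0.973 ± 0.276 FPKM in LLC alone and 1.10 ± 0.17 in LLC with BMSCs (log2 fold change 0.14, edgeR, adjusted p = 0.601). Ecm2 was at 0.103 ± 0.0252 and 0.12 ± 0.010 FPKM (log2 fold change 0.18, edgeR, adjusted p = 0.576). Nyx had 7, 11 and 4 counts against 3, 1 and 5, and Chadl had 0, 3 and 3 counts against 5, 4 and 2. Epyc, Optc and Podn were at or under 3 counts in every library. Kera and Chad had no entry under their symbols in the data.

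**Figure D4:**
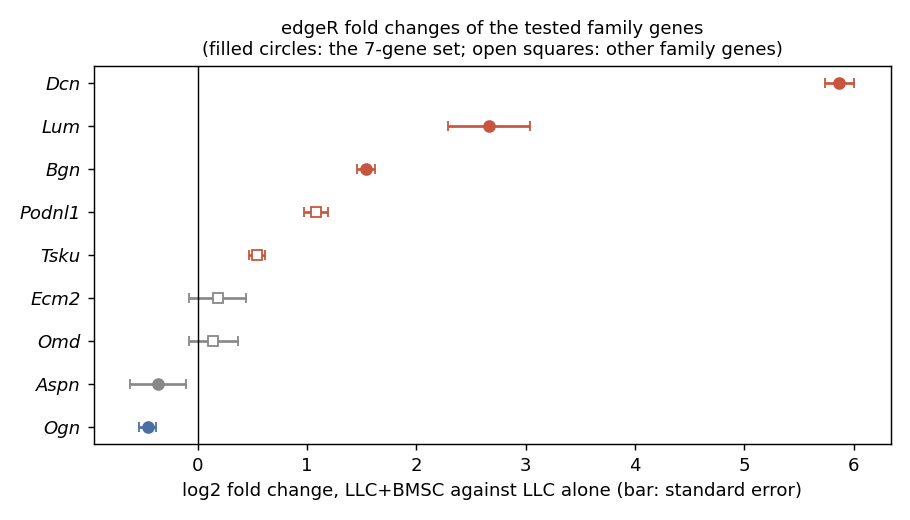
Log2 fold change of LLC with BMSCs against LLC alone (horizontal axis, bars are standard errors from edgeR) for the family genes that passed the filter on low counts. Filled circles are the 5 tested of the 7 genes and open squares are other family genes, with red for higher, blue for lower and grey for not called. Dcn stands at 5.87, far to the right of the others, and Ogn at -0.46 is the only one called lower.

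The genes that most resembled a member across the 6 libraries were found by the root mean square difference of log2 CPM, centred on each gene, among 10594 candidates with a mean of at least 100 normalised counts. For Dcn these were Tgtp2, an interferon-inducible GTPase (difference 0.199), Cmpk2, a mitochondrial nucleotide kinase (0.212), and Col7a1, a collagen of anchoring fibrils (0.251). For Bgn they were Rcor2, a transcriptional corepressor (0.0482), Mapk11, a p38 kinase (0.0495), and Col1a2, a chain of type I collagen (0.0526). For Ogn they were Gbas (0.0115), the methyltransferase Smyd3 (0.0250) and the phosphomannomutase Pmm2 (0.0250). With 6 libraries in 2 groups, such likeness mostly reflects a similar difference between the groups, and it is given with no test.

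The enzymes that assemble, sulphate and epimerise the chains of SLRPs moved in both directions. Of 33 listed, 27 were tested, 13 rose and 9 fell, with a median log2 fold change of 0.26 beside 0.012 for all tested genes. For this and the other lists, the shares over all tested genes were 31.5% called higher and 31.3% called lower. Csgalnact1, which starts chondroitin chains, rose from 0.77 ± 0.040 to 2.89 ± 0.0624 FPKM (log2 fold change 1.88, edgeR, adjusted p = 2.09e-06). Its relative Csgalnact2 fell from 10.7 ± 0.22 to 6.22 ± 0.236 FPKM (log2 fold change -0.80, edgeR, adjusted p = 1.34e-05). Dsel, a dermatan sulphate epimerase, rose with a log2 fold change of 1.19. B3gat3, which completes the linker between core protein and chain, fell with a log2 fold change of -0.86.

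Receptors and ligands that SLRP core proteins are known to bind numbered 18, of which 15 were tested, 8 rose and 5 fell (median log2 fold change 0.47). With at least 10 counts in every library, 13 were tested and 6 rose. The largest rises of the list were at low counts. Itga2 had 4, 2 and 1 counts against 58, 64 and 50 (log2 fold change 4.45) and passed the filter only through LLC with BMSCs. Egfr had 19, 8 and 8 counts against 150, 152 and 117 (log2 fold change 3.48, edgeR, adjusted p = 2.51e-05). Met, the hepatocyte growth factor receptor to which decorin binds, rose from 6.86 ± 1.46 to 14.7 ± 0.813 FPKM (log2 fold change 1.08, edgeR, adjusted p = 0.000453). Lrp1, an endocytic receptor, rose with a log2 fold change of 1.04, though LLC alone replicate 3, at 7.88 FPKM, lay far below the 16.1 and 17.1 of the other LLC alone libraries. Tlr4, a receptor for biglycan, fell from 7.24 ± 0.954 to 4.18 ± 0.106 FPKM (log2 fold change -0.81, edgeR, adjusted p = 0.000189). Tlr2, also a receptor for biglycan, rose from 1.43 to 2.63 FPKM (log2 fold change 0.83, edgeR, adjusted p = 0.000224). Tgfb2, a ligand of decorin, fell with a log2 fold change of -0.39 (edgeR, adjusted p = 0.0061), a call lost with close libraries summed (adjusted p = 0.0536). Its relative Tgfb1 rose (log2 fold change 0.47, edgeR, adjusted p = 0.00302), while Tgfb3 fell (log2 fold change -0.27, edgeR, adjusted p = 0.0127). The count of 5 that fell became 3 without LLC with BMSCs replicate 2 or without its replicate 3. Besides Lrp1, Met and Tlr4 were lowest within their group in LLC alone replicate 3. Met was at 5.18 FPKM there, against 7.62 and 7.79 in replicates 1 and 2. Tgfb1 and Tgfb3 were highest within their group in that library.

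Among 13 proteases and helpers known to process SLRPs, 9 were tested, 8 rose and 1 fell (median log2 fold change 2.32). Mmp12 and Adamts5, which rose, passed the filter on low counts only through LLC with BMSCs. With at least 10 counts in every library, 7 were tested and 6 rose. Mmp13, a collagenase, rose from 0.763 ± 0.0603 to 23.4 ± 1.56 FPKM (log2 fold change 4.91, edgeR, adjusted p = 7.59e-08). Mmp12, the macrophage elastase, had 1, 0 and 0 counts in LLC alone and 329, 316 and 342 in LLC with BMSCs, which is at least 100.4-fold higher against the floor. Pcolce, an enhancer of procollagen processing, was the only one that fell, from 386 ± 18.7 to 325 ± 20.9 FPKM (log2 fold change -0.27, edgeR, adjusted p = 0.0123). That call was lost without LLC with BMSCs replicate 3 (edgeR, adjusted p = 0.0578) and with close libraries summed (0.0913), which leaves 0 that fell.

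Of 17 fibrillar and associated collagens and cross-linkers, 15 were tested, 12 rose and 2 fell (median log2 fold change 1.20). With at least 10 counts in every library, 13 were tested and 10 rose. Among those called higher, Col5a1, Col12a1 and Col6a3 were lowest within their group in LLC alone replicate 3, while Col2a1 was highest there. Col6a3 was at 8.68 FPKM in that library, against 13.9 and 14.5 in replicates 1 and 2. Lox, which cross-links collagen, rose from 0.02 ± 0.010 to 3.30 ± 0.119 FPKM (log2 fold change 7.40, edgeR, adjusted p = 1.12e-07). Col1a1, the main chain of type I collagen, had 2, 4 and 4 counts in LLC alone and 586, 499 and 477 in LLC with BMSCs (log2 fold change 7.14, edgeR, adjusted p = 3.29e-07). Lox had 5, 4 and 2 counts in LLC alone, and both it and Col1a1 passed the filter on low counts only through LLC with BMSCs. Col11a2, a chain of cartilage collagen, fell with a log2 fold change of -1.06. Col1a1 and Dcn thus shared a pattern of no more than 8 counts in any library of LLC alone and at least 477 in each of LLC with BMSCs.

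Proteoglycans of other families numbered 25, of which 17 were tested, 10 rose and 4 fell (median log2 fold change 0.69). Gpc4, Gpc6 and Srgn, which rose, passed the filter on low counts only through LLC with BMSCs. With at least 10 counts in every library, 13 were tested and 7 rose. The count of falls became 2 without LLC alone replicate 1, LLC alone replicate 2 or LLC with BMSCs replicate 2, and ranged from 1 to 6 over all alternatives. Agrn, agrin of basement membranes, rose from 5.34 ± 0.997 to 20.0 ± 0.854 FPKM (log2 fold change 1.88, edgeR, adjusted p = 1.53e-05). Hspg2, perlecan, rose with a log2 fold change of 0.99 (edgeR, adjusted p = 0.0124), a call lost without LLC with BMSCs replicate 1 (0.85, adjusted p = 0.0551). In LLC alone, Hspg2 was at 39.4 and 40.5 FPKM in replicates 1 and 2 but at 19.2 in replicate 3. Leaving out each library gave log2 fold changes of 0.72 to 1.16 for Hspg2. Cspg4, a proteoglycan of pericytes and some tumour cells, fell from 0.75 ± 0.173 to 0.127 ± 0.0379 FPKM (log2 fold change -2.59, edgeR, adjusted p = 6.98e-05). Sdc2, a syndecan, fell with a log2 fold change of -0.87. Besides Hspg2, Agrn and Cspg4 were lowest within their group in LLC alone replicate 3, while Sdc2 was highest there.

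**Figure D5:**
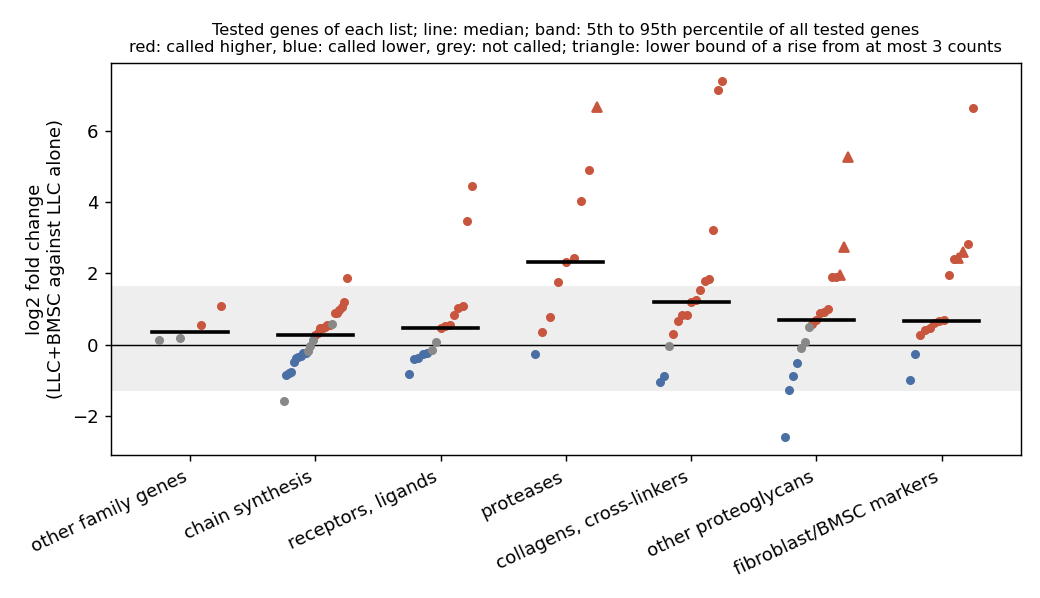
Log2 fold change of LLC with BMSCs against LLC alone (vertical axis) for each tested gene of the lists, with the list median as a line and the 5th to 95th percentile of all tested genes (-1.28 to 1.62) as a band. Red points were called higher, blue lower and grey neither, and triangles are lower bounds for genes at 3 counts or fewer in LLC alone. Proteases hold the highest median at 2.32.

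Because stromal cells are the usual source of SLRPs, markers of other cell types are given beside these results. Over all tested genes, 31.5% were called higher and 31.3% lower. Fibroblast and BMSC markers (21 listed, 14 tested) rose in 12 cases and fell in 2 (1 without LLC alone replicate 1 or 3 or LLC with BMSCs replicate 1 or 2). With at least 10 counts in every library, 10 were tested and 9 rose. Their summed level was 407 to 437 CPM in LLC alone and 603 to 630 in LLC with BMSCs. That sum leans on genes abundant in LLC alone, among them Twist1, Prrx1 (29.2 to 46.0 FPKM) and Eng (28.7 to 34.8). It is therefore no measure of fibroblast or BMSC content. Of these markers, Thy1, Fap and Dpp4 were at or under 3 counts in every library. Fbln1, Gas1 and Cxcl12 had 0 counts in each library of LLC alone. In LLC with BMSCs, Fbln1 had 25, 20 and 15, Gas1 had 21, 13 and 19, and Cxcl12, not tested, had 12, 7 and 8. Fbln1, Gas1 and Pdpn passed the filter only through LLC with BMSCs. Mfap5 (3, 3 and 6 counts against 1, 2 and 1) and Pi16 (17, 7 and 19 against 2, 3 and 5) lay lower and were not tested. Pdgfra was at 5.78 and 8.13 FPKM, Pdgfrb was at 6.59 and 8.75, and Pdpn had 1, 0 and 4 counts against 210, 180 and 175. Ly6a rose from 3.57 to 26.0 FPKM, Fbln2 from 1.20 to 6.38 and Nt5e from 1.02 to 4.02. The 2 that fell were Twist1, from 43.2 to 36.8 FPKM, and Islr, from 0.143 to 0.0767. Macrophage markers (10 listed, 5 tested) rose in 4 cases and fell in 1, with a sum of 9.60 to 11.6 CPM against 13.3 to 13.8. Among them C1qa, C1qb, C1qc and Aif1 were at or under 3 counts in every library, and Cd68 fell from 5.55 to 3.03 FPKM (log2 fold change -0.89, edgeR, adjusted p = 0.000501). The 4 that rose were Adgre1, Csf1r, Mrc1 and Lyz2. Adgre1 had 0 counts in LLC alone and 60, 79 and 63 in LLC with BMSCs, and so passed the filter only through the latter. Csf1r had 18, 13 and 22 counts against 101, 80 and 84, and Mrc1 had 6, 9 and 7 against 54, 62 and 76. Lyz2 went from 3.08 to 4.71 FPKM.

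Pericyte markers (7 listed, 3 tested) rose in 2 cases and fell in 1, with a sum of 6.21 to 7.52 CPM against 5.60 to 7.68. Endothelial markers (8 listed, 3 tested) fell in 1 case, with a sum of 13.7 to 17.3 CPM against 12.8 to 13.6. Cartilage and bone markers (11 listed, 6 tested) rose in 1 case and fell in 3, with a sum of 114 to 119 CPM against 84.4 to 94.0. None of the 4 tendon markers was tested, their sum being under 0.5 CPM, and 2 of 6 epithelial markers were tested and rose. Which cells in the sort gate gave the SLRP reads was not tested, and the part of these markers in the SLRP differences was not tested.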

How the data were processed

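RNA sequencing of sorted LLC-RFP cells was analysed in 6 libraries, which their titles place in LLC alone (n = 3) or LLC with BMSCs (n = 3). The values deposited by the authors were, for genes and transcripts, estimated counts of fragments, which need not be whole (21.9% to 23.2% of listed genes), and FPKM values, which divide by length and library total. Per the labels, HISAT, StringTie, Cufflinks, GATK and build mm8 were named without versions or roles, and the counting program and its use of strand are not given in the sources used here. Positions are from GENCODE and RefSeq on GRCm38 and were not converted. Per the study's methods, polyadenylated RNA was captured on oligo-dT beads for sequencing by BGI, whereas the labels name Illumina protocols.

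Estimated counts were rounded and tested with edgeR 4.0.16 (TMM, default filter, quasi-likelihood) in R 4.3.3 over all genes. Normalised counts are CPM times the mean effective library size, and a standard error is the absolute log2 fold change over the root of the test statistic. A group at or under 3 counts in every library was set to 3 counts per library for a bound, and floors and exact (Clopper-Pearson based) intervals cover counting error only. At these depths 3 counts lay well under 1 CPM. The code was tested on simulated data.

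The 7 genes and all lists were chosen with earlier results of these data known. From each list, the 2 largest called rises and 2 largest called falls with a mean of at least 100 normalised counts were eligible for naming, with all other family genes above 3 counts and the 3 genes most like each member. Markers, and the genes Epcam, Cdh1, Krt8, Thy1, Fap, Dpp4, Pdgfra, Pdpn, C1qa, C1qb, C1qc, Aif1, Cd68 and Adgre1 among them, were named after their values were seen. So were the markers Pdgfrb, Ly6a, Fbln2, Nt5e, Twist1, Islr, Csf1r, Mrc1 and Lyz2. Tlr2, Tgfb1 and Tgfb3 were also named after their values were seen, outside the naming rule. The same holds for Itga2, Egfr, Adamts5, Gpc4, Gpc6, Srgn, Col2a1, Col3a1, Col5a1, Col6a3 and Col12a1. It holds too for the markers Fbln1, Gas1, Cxcl12, Mfap5, Pi16, Prrx1, Eng, Krt7, Krt18 and Krt19. Alternatives were DESeq2 1.42.0, limma 3.58.1 on log2(FPKM + 1) and log2(FPKM + 0.1), other scalings and filters, leaving out each library, a replicate block, removal of the trend over length, and summing of close libraries. The list counts under these alternatives were added after the data were seen. The other experiments of the study were not analysed here.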

Additional observations from a re-analysis of the deposited data

How the results depend on the processing

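Dcn, Bgn, Lum and Ogn kept their direction and stayed past the threshold, and Aspn stayed short of it, under each alternative that gave a value (17, 18, 15, 18 and 15 of them). The log2 fold change ranged from 2.72 to 6.01 for Dcn, 1.10 to 1.58 for Bgn, 0.26 to 2.86 for Lum, -0.50 to -0.35 for Ogn and -0.54 to -0.034 for Aspn. The values nearest 0 are those on log2(FPKM + 1), which understates changes of low genes. Dcn could not be fitted with at least 10 counts in every library, and Lum and Aspn could not under that filter or under 1 FPKM in 3 libraries. Leaving out each library gave 5.79 to 6.01 for Dcn, 1.50 to 1.58 for Bgn, 2.45 to 2.86 for Lum and -0.49 to -0.42 for Ogn. Genes called higher numbered 3364 to 4736 and lower 3301 to 5354 over the alternatives. With the length trend removed, 42.8% of calls were higher, against 50.2% in the main fit. The median log2 fold change of all tested genes was then -0.064, against 0.012, so the background of the lists shifts with that choice.

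Same-numbered libraries did not deviate together (correlations 0.0762, -0.106 and 0.0572). With a replicate block the log2 fold changes were 5.86 for Dcn, 1.54 for Bgn, 2.63 for Lum, -0.46 for Ogn and -0.37 for Aspn. The block gave 4161 genes higher and 4058 lower.

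The counts of listed genes that fell were small and moved most, over all alternatives from 1 to 6 for other proteoglycans, 0 to 3 for fibroblast and BMSC markers, 1 to 3 for collagens and cross-linkers, 2 to 6 for receptors and ligands, 0 to 1 for proteases and 6 to 11 for chain enzymes. The highest counts came with the length trend removed (other proteoglycans, receptors and ligands, chain enzymes, and, with the block, collagens) or with limma on unfiltered log2(FPKM + 1) (the markers). For other proteoglycans, 4 became 2 with DESeq2, the block or close libraries summed, and 1 with limma on filtered log2(FPKM + 1) or log2(FPKM + 0.1). For fibroblast and BMSC markers, 2 became 1 with DESeq2, without TMM, with at least 10 counts in every library, with limma on filtered log2(FPKM + 1), with length trend removed together with the block, and with close libraries summed, and 0 with limma on log2(FPKM + 0.1) and with the block. For collagens and cross-linkers, 2 became 1 with limma on either filtered scale. With close libraries summed, 5 receptors and ligands became 2 and 1 protease became 0. Without single libraries these counts were 2 to 4, 1 to 2, 2 to 2, 3 to 5 and 0 to 1 in that order. Pcolce (-0.22, adjusted p = 0.0578) lost its call without LLC with BMSCs replicate 3, and it and Tgfb2 (edgeR adjusted p = 0.0913 and 0.0536) lost theirs with close libraries summed. The cause was not tested.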
